A study of Mus musculus with 33 samples.

Results

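The chemokine ligands of sorted mouse mammary epithelial cells are described here, gene by gene, in tumors and in tumor-free glands with and without PTHrP. Genes were taken as members where the raw count table lists them as protein coding, where their symbol is Ccl, Cxcl or Cx3cl1 with a number as such ligands are named, and where at least 10 reads were counted over all 33 libraries. Of 55487 genes in the table, 44 protein-coding genes had such a name and 33 of them passed the read minimum. The other 11 were Ccl19 and Ccl27a copies, the Ccl21 copies and Ccl27b, of which Ccl27b had 2 reads and the rest 0. These copies lie in near-identical repeats, so reads from them may have been lost in counting, and their zeros are uncertain.

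The PyMT and Cre lines were on an FVB background, to which the Pthrp floxed line had been backcrossed, and all mice carried MMTV-Cre, which expresses Cre recombinase mainly in mammary epithelium, and the mTmG reporter, of a line whose background is not given, which turns from red to GFP in cells where Cre has acted. PTHrP WT mice were Pthrpwt/wt, and PTHrP KO mice were Pthrpflox/flox, so that Cre removes part of the gene for PTHrP in cells that express Cre. Tumor mice also carried MMTV-PyMT, an oncogene under the same kind of promoter, and the mice of the tumor-free glands lacked it. WT tumors came from 3 mice each of 6, 8 and 10 weeks and from 1 mouse of 12 weeks, and KO tumors from 3 mice each of 8, 10 and 12 weeks. Glands came from 2 WT mice each of 6, 8, 10 and 12 weeks and from 2 KO mice each of 8, 10 and 12 weeks. Each library is 1 mouse, and the GFP+ cells were digested out of the tissue and kept in medium with serum before sorting, so the levels are those of cells after a short culture.

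Chemokine ligands are small secreted proteins that bind G protein-coupled receptors on leukocytes and guide the cells along a gradient. The CC and CXC families are named after the spacing of their first cysteines, and CX3CL1 is the only member of its own family. In the mammary gland, epithelial cells, stroma and resident leukocytes all make them. CXCL1, CXCL2, CXCL3 and CXCL5 attract neutrophils through CXCR2, CXCL9 and CXCL10 attract activated T cells through CXCR3, CCL2, CCL7 and CCL8 attract monocytes through CCR2 and related receptors, and CCL20 attracts cells that carry CCR6.

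The libraries held 28419983 to 130981596 counted reads, and 0 reads of a gene still allow up to 3 expected reads. The median share of reads on ribosomal RNA was 0.0499% in WT tumors, 0.952% in KO tumors, 0.0116% in WT glands and 6.2% in KO glands. Summed levels of 10 luminal markers were 4206 to 10411 CPM (read counts relative to the TMM-scaled library total), so the labelled epithelium was present in every library. Levels of Pthlh, the gene of PTHrP, overlapped between genotypes (1.46 to 6.67 CPM in WT tumors and 1.35 to 2.29 in KO tumors), but reads from outside the deleted part still count, so this checks no label. In 3 glands the sum of 10 macrophage markers was above that of every tumor, where the highest sum was 19.2 CPM. They were the second WT gland of week 6 (25.3 CPM), the second WT gland of week 8 (54.7 CPM) and the second KO gland of week 10 (25.7 CPM), and results that rest on these macrophage-high glands are given with and without them.

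The ligands ranged from abundant to barely detected. Per kilobase of exon, Cxcl16, a membrane-bound ligand of CXCR6, had the highest level, with a mean of 61.0 CPM per kb over the 33 libraries, followed by Cxcl1 (24.5), Cxcl14 (22.9), Cx3cl1 (10.7) and Cxcl5 (10.2). Cxcl16 alone held 44.0% of the summed CPM of all members. In all, 16 members had a mean over 1 CPM, 17 had reads in every library, and 5 had reads in fewer than 17 libraries. These last were Ccl12, Ccl24, Ccl26, Ccl1 and a second Ccl27a entry on the unplaced scaffold JH584293.1. Ccl24, Ccl26, Ccl1 and that second entry had at most 4 reads in any library, so no difference in them was detectable at this depth, and the 2 Ccl27a entries share nearly identical sequence and may share reads. Summed over all members, the level was 236 to 470 CPM in WT tumors (median 336), 324 to 561 in WT glands (439), 329 to 550 in KO tumors (392) and 306 to 595 in KO glands (543). The ranges of the 4 sets overlapped.

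**Figure D1:**
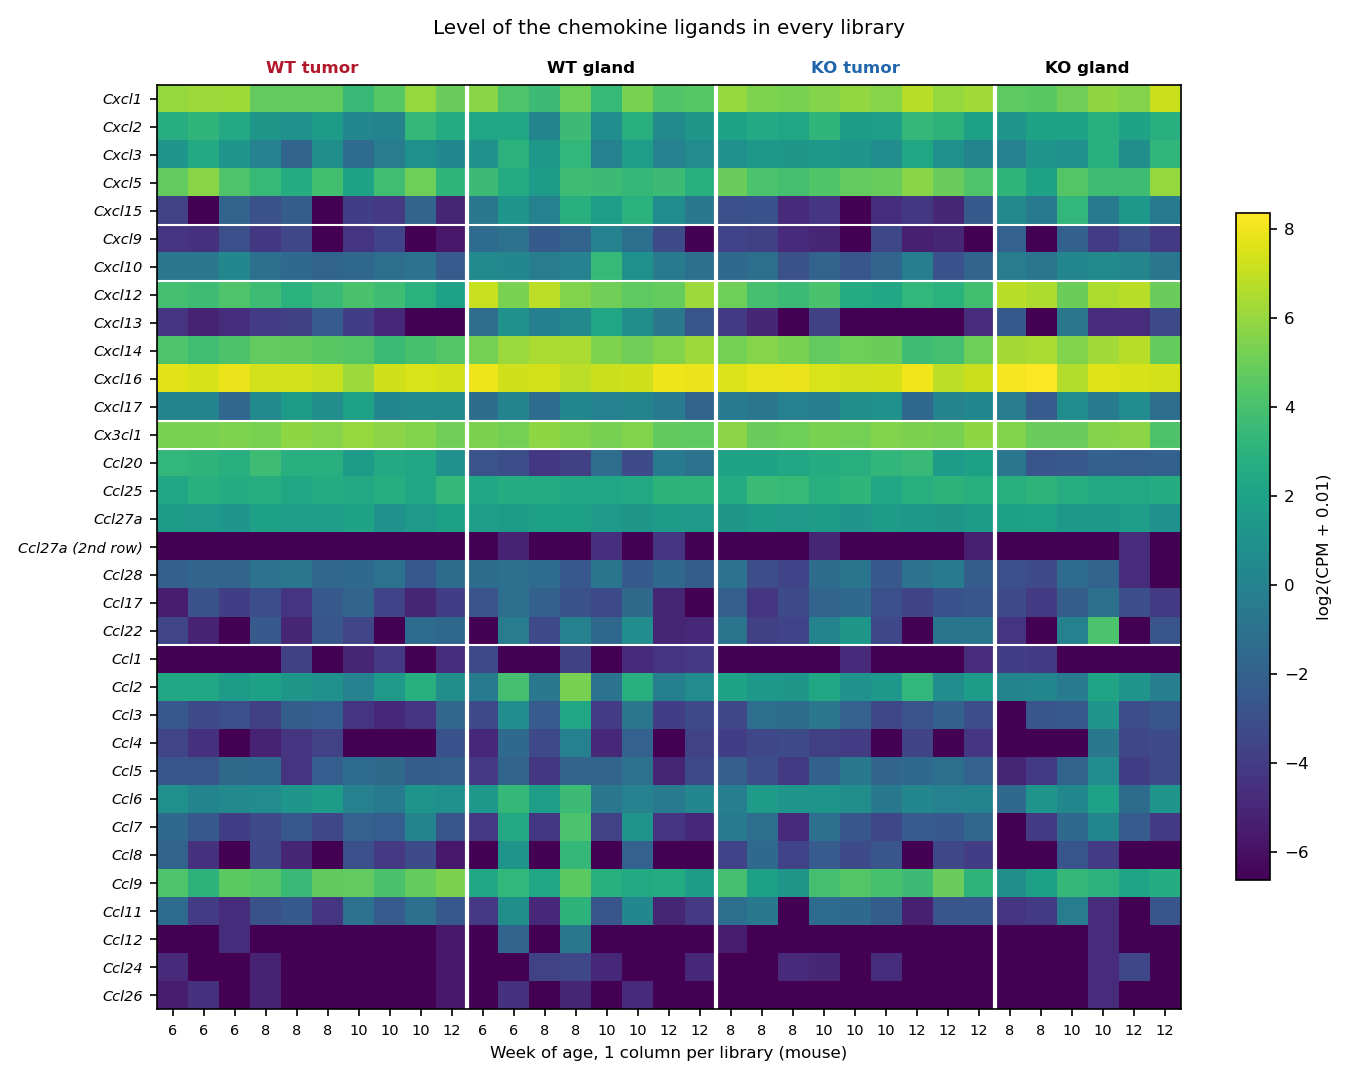
Levels of the 33 chemokine ligands (vertical axis) in the 33 libraries (horizontal axis, grouped by genotype, tissue and week), colored by log2(CPM + 0.01). Ccl20 is higher in every tumor than in every gland and Cxcl15 lower, Cxcl16 is high throughout, and Ccl2, Ccl7 and Ccl8 are highest in the second WT gland of week 8.

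By position, 12 members lie on chromosome 11 and 10 on chromosome 5, where the neutrophil-attracting CXC genes form a cluster, and 4 lie on chromosome 8 (GRCm38). No member shares exon bases with a gene on its own strand. Cxcl16, Ccl25, Cxcl10 and Ccl27a share 552, 204, 133 and 8 exon bases with Zmynd15, Elavl1, Art3 and Il11ra1 on the opposite strand, and how strand was treated in counting is not given, so those reads cannot be assigned with certainty.

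The first question was how the ligands of tumor cells differ from those of gland cells of the same genotype. Averaged over weeks 6, 8 and 10 in WT mice, 16 of 33 members were called different (fold change over 1.5 in either direction and Benjamini-Hochberg adjusted p under 0.1 by edgeR's quasi-likelihood test over 36527 genes), against 15.7% of all genes tested. Only 2 of the 16, Ccl20 and Ccl9, were higher in tumors, against 6.21% of all genes called higher, and 14 were lower, against 9.53% called lower. The median log2 fold change of the members was −1.29, and that of all genes tested was 0.03. Averaged over weeks 8, 10 and 12 in KO mice, 9 of 33 were called, against 10.6% of all genes. Of these, Ccl20, Ccl9 and Ccl28 were higher (5.16% of all genes) and 6 were lower (5.44% of all genes), with a member median of 0.22 and a median of 0.09 over all genes. Without the 3 macrophage-high glands, 9 members were called in WT mice (3 higher and 6 lower, against 5.08% and 6.1% of all genes), with Ccl3, Ccl4, Ccl6, Ccl7, Ccl8, Ccl11, Ccl22 and Cxcl3 no longer called and Cxcl17 now called. Without the second WT gland of week 6 alone, these 8 members were also lost and 8 were left. In KO mice 11 members were called without the 3 macrophage-high glands (5 higher and 6 lower, against 4.5% and 4.43% of all genes), with Ccl2 and Ccl5 added.

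**Figure D2:**
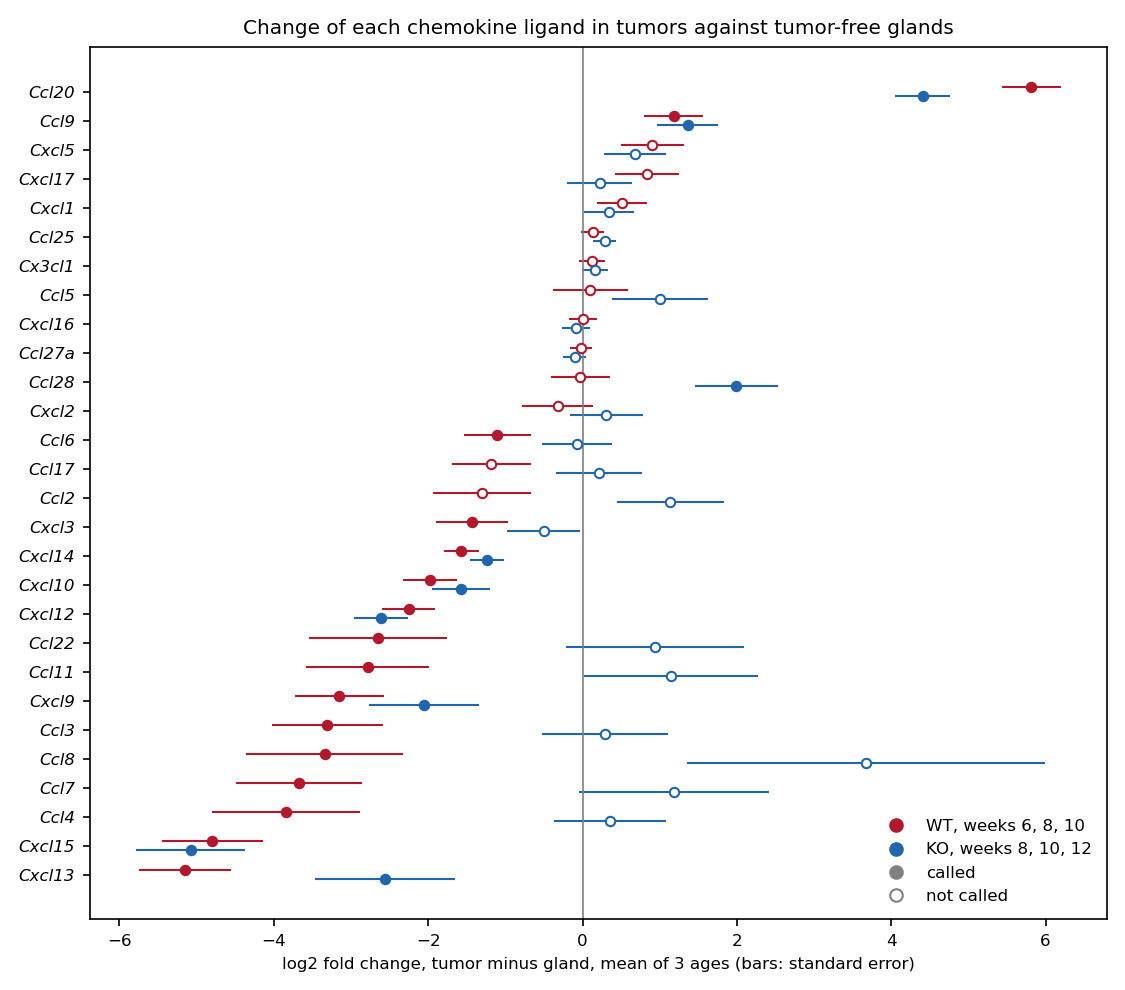
Log2 fold change of tumors against glands (horizontal axis, ± SE) for 28 chemokine ligands (vertical axis) in WT and KO mice, averaged over weeks, with filled points for members called and open points for those not called. Ccl20 stands far to the right in both genotypes (5.81 and 4.41), and Cxcl15 far to the left (−4.80 and −5.08), and 5 members with very few reads are left out.

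Ccl20 was the member with the largest rise. It encodes a chemokine made by epithelia, also called MIP-3 alpha, whose receptor CCR6 sits on dendritic cells, B cells and some T cells. The gene lies on chromosome 1 (83116766 to 83119167, plus strand, GRCm38). In WT tumors its level was 1.91, 6.77 and 13.2 CPM (lowest, median and highest of 10), and in WT glands 0.0443, 0.123 and 0.717 CPM (of 8). In KO tumors it was 3.15, 4.99 and 11.1 CPM (of 9), and in KO glands 0.144, 0.233 and 0.589 CPM (of 6). Every tumor was above every gland in both genotypes. The log2 fold change was 5.81 ± 0.38 (SE, adjusted p = 1.64e-10) in WT mice and 4.41 ± 0.36 (adjusted p = 8.21e-09) in KO mice. It was called at each age, with log2 fold changes of 6.08, 7.36 and 3.99 at weeks 6, 8 and 10 in WT mice and of 3.42, 5.13 and 4.67 at weeks 8, 10 and 12 in KO mice. The WT glands of week 8 held 3 reads or fewer each, which makes the WT tumors of that week at least 143-fold higher. The difference of the tumor effect between genotypes over weeks 8 and 10 was 1.40 ± 0.61, with an adjusted p of 0.868.

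The Ccl20 promoter is shown because this gene had the clearest change of the family. The 250 bases before the RefSeq start (GRCm38.p6, chr1:83116516-83116765, plus strand) hold a match to the NF-kB consensus at 80 to 71 bases before the start, on the opposite strand, and the capitals mark it.
Ccl20: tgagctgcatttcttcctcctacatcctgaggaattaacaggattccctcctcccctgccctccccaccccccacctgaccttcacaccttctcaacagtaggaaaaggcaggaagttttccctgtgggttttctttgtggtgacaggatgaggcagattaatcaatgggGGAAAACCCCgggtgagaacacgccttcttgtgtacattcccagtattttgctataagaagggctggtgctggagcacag
The consensus was searched on both strands in the 250 upstream bases of all 32851 promoters of the table, of which 7.25% held a match. Among the members, 22 of 32 symbols had a promoter in the table (25 promoters), and 7 of the 25 held a match, those of Ccl1, Ccl9, Ccl20, Cxcl1, Cxcl2, Cxcl3 and Cxcl10. Of these 7, Ccl20 and Ccl9 were called higher in WT tumors and Cxcl3 and Cxcl10 lower, so the members with this match did not share a direction.

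The receptor of Ccl20, Ccr6, was looked up after the values of the ligand were seen. It was at 0 to 0.127 CPM in WT tumors, WT glands and KO tumors and reached 1.79 CPM in 1 KO gland, the second of week 10. The same gland held the highest sum of 10 lymphocyte markers (14.8 CPM, where no other library was above 2.02).

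Cxcl12, Cxcl14 and Cxcl15 were lower in tumors, and in WT mice every tumor was below every gland for each of them. With Ccl20, that makes 4 members whose WT tumors and WT glands did not overlap, against 3.61% of all genes tested. In KO mice 2 members, Ccl20 and Cxcl15, did not overlap, against 3.43% of all genes, and over both genotypes, 19 tumors against 14 glands, the same 2 members did not overlap, against 1.14%. All 10 basal markers of the list, myoepithelial genes such as Krt14 and Acta2, were also lower in tumors of both genotypes, against 9.53% of all genes called lower in WT and 5.44% in KO mice. Their sum was 1006 to 3694 CPM in WT tumors and 5311 to 20766 in WT glands, and 1612 to 5420 in KO tumors and 5561 to 19725 in KO glands. Of the 10 luminal markers, 4 were lower (Prlr, Esr1, Krt19 and Pgr) and 2 higher (Kit and Elf5) in WT tumors, where 6.21% of all genes were called higher. In KO tumors 3 were lower (Esr1, Krt19 and Pgr) and 3 higher (Kit, Elf5 and Cldn3), where 5.16% of all genes were called higher. The part of these shifts in the lower ligand levels was not tested, and in such bulk samples fewer cells of a type and less RNA per cell cannot be told apart.

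Cxcl12, also called SDF-1, binds CXCR4 and ACKR3 and keeps stem cells and lymphocytes in their niches. Its level was 3.88, 13.0 and 18.5 CPM in WT tumors (lowest, median and highest) and 25.2, 42.4 and 139 CPM in WT glands. In KO tumors it was 4.85, 11.8 and 32.6 CPM, and in KO glands 30.7, 91.8 and 112 CPM. Of the 9 KO tumors, 8 were below every KO gland, and the exception was the first tumor of week 8 at 32.6 CPM. The log2 fold change was −2.25 ± 0.35 in WT mice (adjusted p = 2.41e-05) and −2.61 ± 0.35 in KO mice (adjusted p = 6.18e-06). By age it was called at every week but week 10 of WT mice, where the change was −1.28 with an adjusted p of 0.295, but in KO mice the calls of single weeks were lost without 1 library, at week 8 without either gland or 1 of 2 tumors, at week 10 without the macrophage-high gland and at week 12 without the first gland.

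Cxcl14, a chemokine of skin and other epithelia that attracts monocytes and dendritic cells, had levels of 11.8, 19.8 and 27.1 CPM in WT tumors and 35.0, 57.0 and 87.2 CPM in WT glands. In KO tumors it was 12.8, 33.1 and 49.6 CPM, and in KO glands 28.2, 78.0 and 108 CPM. The KO groups overlapped, with 3 of 9 tumors below every gland. Its log2 fold change was −1.57 ± 0.22 in WT mice (adjusted p = 7.98e-06) and −1.24 ± 0.22 in KO mice (adjusted p = 0.000229).

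Cxcl15, or lungkine, a neutrophil-attracting chemokine best known from lung epithelium, was near the floor in tumors. Its level was 0, 0.0618 and 0.285 CPM in WT tumors against 0.634, 1.9 and 7.59 CPM in WT glands, and 0, 0.0412 and 0.18 CPM in KO tumors against 0.674, 1.03 and 9.64 CPM in KO glands. No tumor reached the lowest gland. The log2 fold change was −4.80 ± 0.65 in WT mice (adjusted p = 4.37e-06) and −5.08 ± 0.71 in KO mice (adjusted p = 1.09e-05). At week 10 the KO tumors held 3 reads or fewer each, against 283 and 25 reads in the KO glands, so the size of that change rested on 1 gland, and the call of that week was lost without it. In WT mice the calls of weeks 6 and 8 were lost without the 3 macrophage-high glands.

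The promoters of these 3 genes are shown side by side because the genes were lower in tumors of both genotypes. Each is the 250 bases before the RefSeq start in GRCm38.p6, Cxcl12 at chr6:117168285-117168534 (plus strand), Cxcl14 at chr13:56296552-56296801 (minus strand) and Cxcl15 at chr5:90794284-90794533 (plus strand). Capitals mark a match in Cxcl14 to GAAA followed by any 2 bases and GAAA again, the core of interferon-stimulated elements, and a match to TATAAA in Cxcl15.
Cxcl12: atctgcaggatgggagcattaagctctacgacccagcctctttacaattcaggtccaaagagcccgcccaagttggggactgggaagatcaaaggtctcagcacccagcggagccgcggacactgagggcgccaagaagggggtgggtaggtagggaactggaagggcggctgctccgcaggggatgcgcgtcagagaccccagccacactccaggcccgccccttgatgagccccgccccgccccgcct
Cxcl14: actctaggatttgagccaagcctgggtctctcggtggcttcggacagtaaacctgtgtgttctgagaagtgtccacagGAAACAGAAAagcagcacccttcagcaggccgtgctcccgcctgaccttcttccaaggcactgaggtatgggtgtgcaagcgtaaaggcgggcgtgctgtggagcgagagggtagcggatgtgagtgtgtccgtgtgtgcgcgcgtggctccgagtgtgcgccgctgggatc
Cxcl15: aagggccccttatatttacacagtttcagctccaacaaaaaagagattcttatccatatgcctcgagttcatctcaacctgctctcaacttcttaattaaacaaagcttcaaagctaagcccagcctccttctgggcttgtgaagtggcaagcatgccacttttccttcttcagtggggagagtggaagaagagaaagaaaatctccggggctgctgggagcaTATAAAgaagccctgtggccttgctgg
The G and C share of the 3 stretches was 64.4%, 59.6% and 46.4%. The 4 motifs searched (the NF-kB consensus, the interferon core, the AP-1 motif TGANTCA and the TATAAA box, on both strands) gave no match in the Cxcl12 window, and the 3 promoters shared none of them. The interferon core was in 2.98% of all promoters and TATAAA in 12.4%.

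Cxcl13, which attracts B cells through CXCR5, was lower in tumors and was also the only member called between WT and KO glands. Its level was 0, 0.0345 and 0.191 CPM in WT tumors and 0.137, 1.09 and 4.71 CPM in WT glands. In KO tumors it was 0, 0 and 0.0618 CPM, and in KO glands 0, 0.0631 and 0.613 CPM. In WT mice 9 of 10 tumors were below every gland, whereas the KO values were close to the floor in both tissues. The log2 fold change of tumors against glands was −5.15 ± 0.60 in WT mice (adjusted p = 4.67e-07) and −2.56 ± 0.91 in KO mice (adjusted p = 0.0633). The KO call was lost without the first gland of week 8, the first of week 10 or the second of week 12 (−0.69, −1.43 and −2.22).

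**Figure D3:**
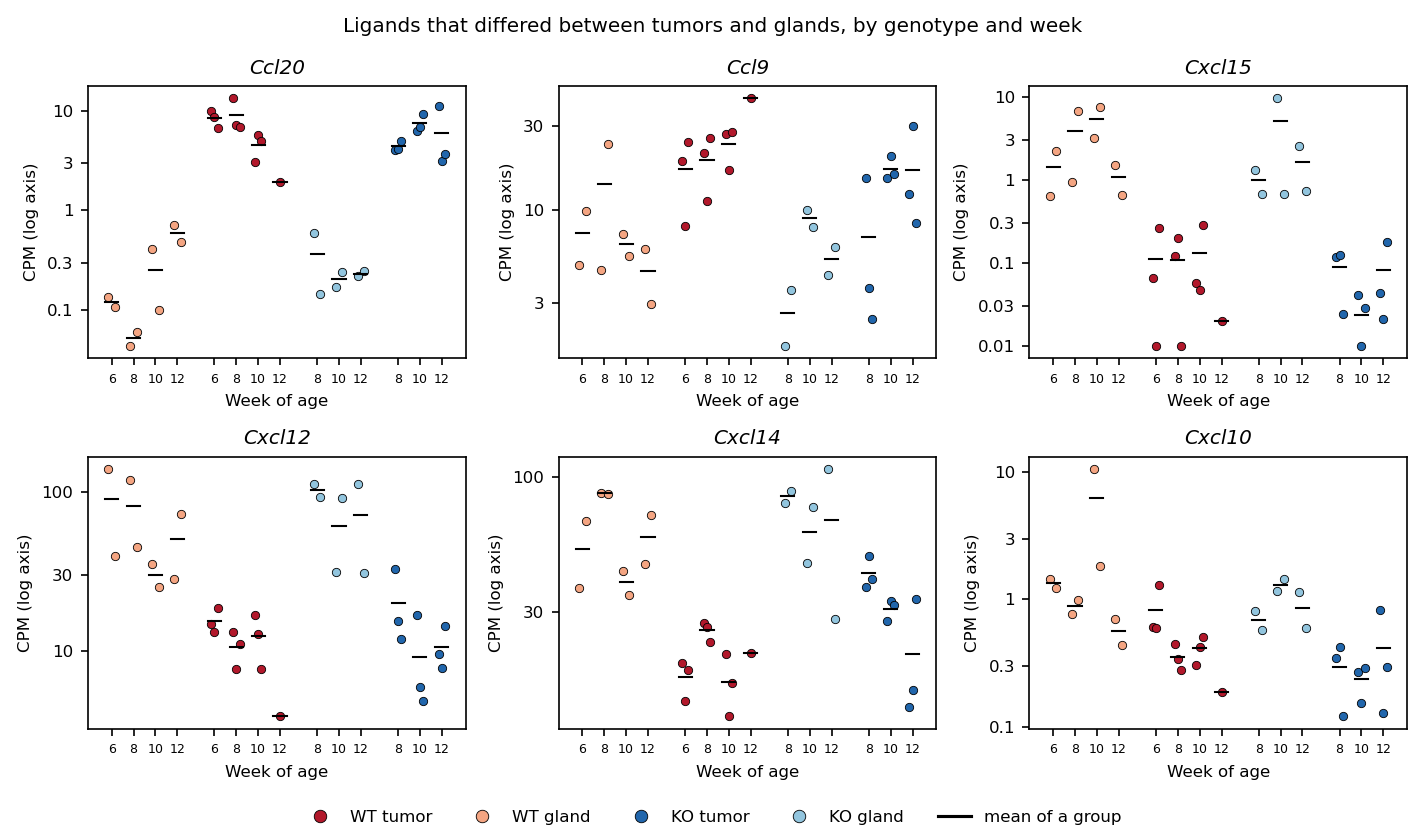
Level of Ccl20, Ccl9, Cxcl15, Cxcl12, Cxcl14 and Cxcl10, all called in both genotypes (vertical axis, CPM on a log axis, values of 0 drawn at 0.01) in each library by week (horizontal axis), in panels by gene with tumors and glands of each genotype apart and a black line at the group mean. The Ccl20 points of all tumors, 1.91 CPM and above, stand over those of all glands, 0.717 CPM and below, and the Cxcl15 points do the reverse.

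The CXCR3 ligands Cxcl9 and Cxcl10, known for their induction by interferon gamma, were lower in tumors of both genotypes, 2 of 2 members, against 9.53% of all genes called lower in WT and 5.44% in KO mice. The third CXCR3 ligand, Cxcl11, is not a member. It was called lower in WT tumors and was not called in KO tumors. Cxcl10 was at 0.187, 0.435 and 1.29 CPM in WT tumors and 0.434, 1.11 and 10.7 CPM in WT glands. In KO tumors it was 0.121, 0.287 and 0.831 CPM, and in KO glands 0.577, 0.97 and 1.44 CPM. Below every gland of their genotype were 5 of 10 WT tumors and 8 of 9 KO tumors. The log2 fold change was −1.97 ± 0.35 in WT mice (adjusted p = 0.000147) and −1.57 ± 0.37 in KO mice (adjusted p = 0.00375). The first WT gland of week 10 had the highest Cxcl10, Cxcl9 and Cxcl13 of all libraries (10.7, 0.994 and 4.71 CPM).

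Cxcl9 was low throughout, at 0, 0.039 and 0.117 CPM in WT tumors, 0, 0.312 and 0.994 CPM in WT glands, 0, 0.0211 and 0.0861 CPM in KO tumors and 0, 0.0825 and 0.255 CPM in KO glands. All 10 WT tumors were below the median WT gland, and 8 of 9 KO tumors below the median KO gland. On the log2 scale tumors differed from glands by −3.15 ± 0.57 in WT mice (adjusted p = 0.00021) and −2.06 ± 0.72 in KO mice (adjusted p = 0.057). The KO call was lost without the third tumor of week 12 (−1.86) or the first gland of week 8 (−0.04), of week 10 (−1.61) or of week 12 (−1.79).

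The Cxcl10 promoter is shown because it held matches to 3 of the 4 motifs searched, as did that of Ccl9 (all but the interferon core). The 250 bases before the RefSeq start (chr5:92348890-92349139, minus strand, GRCm38.p6) hold, from left to right in capitals, the interferon core, the NF-kB consensus at 2 places and TGANTCA. The last was in 6.75% of all promoters.
Cxcl10: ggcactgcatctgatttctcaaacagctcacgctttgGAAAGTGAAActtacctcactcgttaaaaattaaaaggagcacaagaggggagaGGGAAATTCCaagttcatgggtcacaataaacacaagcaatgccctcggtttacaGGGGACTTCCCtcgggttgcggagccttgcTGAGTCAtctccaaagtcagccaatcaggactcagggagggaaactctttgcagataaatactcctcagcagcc
Of 9 regulators of the interferon gamma response, 5 were lower in WT tumors (Irf9, Stat2, Socs1, Cd274 and Irf8) and none higher, against 9.53% of all genes called lower and 6.21% called higher, with a list median of −0.96. In KO tumors 2 were lower (Socs1 and Irf8), against 5.44% of all genes, with a list median of 0.15. With the 3 macrophage-high glands left out, 2 were lower in WT tumors (Socs1 and Cd274) and 0 in KO tumors, against 6.1% and 4.43% of all genes in that fit. The first WT gland of week 10 had the highest sum of the list (718 CPM, where no other library was above 524), and without it the same 5 were lower. The 3 most abundant of the list were not called in either genotype in the averages over weeks. Irf1, a transcription factor of this response, had log2 fold changes of −0.05 and 0.40, and the receptor genes Ifngr2 (0.27 and 0.49) and Ifngr1 (0.52 and 0.35) were also under the fold threshold.

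Among 13 inflammatory CC ligands, 6 were lower in WT tumors (Ccl3, Ccl4, Ccl6, Ccl7, Ccl8 and Ccl11) and 1 higher (Ccl9), against 9.53% of all genes called lower and 6.21% called higher. In KO tumors Ccl9 was called higher, against 5.16% of all genes, and none was called lower. The test of the difference between the genotypes called none of the 13. The 6 lower calls rested on few libraries. Ccl7, a monocyte attractant whose gene lies next to Ccl2 on chromosome 11, is an example. Ccl7 was at 0.0587, 0.166 and 1.06 CPM in WT tumors and 0.0229, 0.0573 and 17.1 CPM in WT glands. All 10 WT tumors were above the median gland, and 3 glands were above every tumor, the second gland of weeks 6, 8 and 10 (5.36, 17.1 and 2.18 CPM). Tumor against gland, its log2 fold change was −3.68 ± 0.82 (adjusted p = 0.00177) with all glands and 0.77 (adjusted p = 0.743) without the 3 macrophage-high glands, and the call was lost without the second gland of week 6 (−1.73) or of week 8 (−1.17) alone. In KO mice Ccl7 was at 0.0241, 0.19 and 0.701 CPM in tumors and 0, 0.122 and 1.19 CPM in glands, a change of 1.18 ± 1.23 (adjusted p = 0.709).

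Ccl2, the main monocyte attractant, was at 0.979, 2.84 and 6.92 CPM in WT tumors and 0.524, 1.2 and 39.6 CPM in WT glands, with 9 of 10 tumors above the median gland and the same second glands of weeks 6, 8 and 10 above every tumor. Its change was −1.31 ± 0.63 (adjusted p = 0.173) in WT mice and 1.14 ± 0.69 (adjusted p = 0.369) in KO mice, where tumors held 1.6, 2.55 and 9.62 CPM and glands 0.681, 1.09 and 4.29 CPM. Without the 3 macrophage-high glands Ccl2 was called higher in KO tumors.

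Ccl3 and Ccl4, the macrophage inflammatory proteins, were low in most libraries. Ccl3 was at 0.0236, 0.11 and 0.295 CPM in WT tumors and 0.0539, 0.145 and 5.17 CPM in WT glands, and the second WT glands of weeks 6, 8 and 10 were above every WT tumor. Its log2 fold change was −3.31 ± 0.72 (adjusted p = 0.00143) with all glands and −0.99 (adjusted p = 0.461) without the 3 macrophage-high glands. Ccl4 was at 0, 0.0258 and 0.128 CPM in WT tumors and 0, 0.0786 and 0.97 CPM in WT glands, with changes of −3.84 ± 0.96 (adjusted p = 0.00573) and −2.04 (adjusted p = 0.272). Without the second gland of week 6 alone, neither was called (−2.23 and −2.86). In KO mice neither was called (0.30 ± 0.82 and 0.36 ± 0.72). The ranges were 0.0832 to 0.597 CPM for Ccl3 in KO tumors and 0 to 2.23 CPM in KO glands, and 0 to 0.0964 CPM against 0 to 0.624 CPM for Ccl4, and the second KO gland of week 10 held the highest value of both.

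Ccl8, a ligand of CCR2, and Ccl11, or eotaxin, which attracts eosinophils through CCR3, changed direction once glands were left out. Ccl8 was at 0, 0.0407 and 0.264 CPM in WT tumors and 0, 0 and 10.1 CPM in WT glands. Its change was −3.34 ± 1.02 (adjusted p = 0.0236), 3.22 (adjusted p = 0.332) without the 3 macrophage-high glands and 0.35 without the second gland of week 8 alone, and the call was also lost without the second gland of week 6 (−0.39) or of week 10 (−1.55). Ccl11 was at 0.0293, 0.174 and 0.499 CPM in WT tumors and 0.0199, 0.0922 and 8.35 CPM in WT glands, with changes of −2.78 ± 0.80 (adjusted p = 0.0141) and, without the 3 macrophage-high glands, 1.11 (adjusted p = 0.6). Without the second gland of week 6, 8 or 10 alone, Ccl11 was not called (−1.36, −0.31 and −2.05). In KO mice the changes were 3.67 ± 2.32 for Ccl8 (adjusted p = 0.396) and 1.14 ± 1.127 for Ccl11 (adjusted p = 0.682). The KO ranges overlapped, at 0 to 0.336 and 0 to 0.136 CPM for Ccl8 in tumors and glands and at 0 to 0.651 and 0 to 0.818 CPM for Ccl11.

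Ccl6, a CCR1 ligand of myeloid cells, was at 0.709, 1.67 and 3.0 CPM in WT tumors and 0.616, 1.87 and 12.6 CPM in WT glands. The change was −1.10 ± 0.43 (adjusted p = 0.0797), which fell to −0.24 (adjusted p = 0.907) without the 3 macrophage-high glands, and the call was also lost without any 1 of 6 tumors (−1.11 to −1.01) or without the second gland of week 6 (−0.65), of week 8 (−0.69) or of week 10 (−0.98). In KO mice it was −0.07 ± 0.45, at 0.66 to 3.09 CPM in tumors and 0.334 to 3.77 CPM in glands. Ccl12, another CCR2 ligand, was called lower only at week 8 in WT mice (adjusted p = 0.067). The tumors held 0 reads and the glands 0 and 31, so the call rested on the second gland (0.627 CPM, its highest level of all libraries), and it was lost without that gland, without the first tumor and without the 3 macrophage-high glands. Ccl12 had 51 reads over all libraries, with 31 and 16 of them in the second WT glands of weeks 8 and 6. It passed the read minimum only through these glands, so its call carries no weight. Ccl5, or RANTES, which attracts T cells, was not called in either genotype (0.10 ± 0.48 and 1.01 ± 0.62), at 0.0196 to 1.66 CPM over all libraries.

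**Figure D4:**
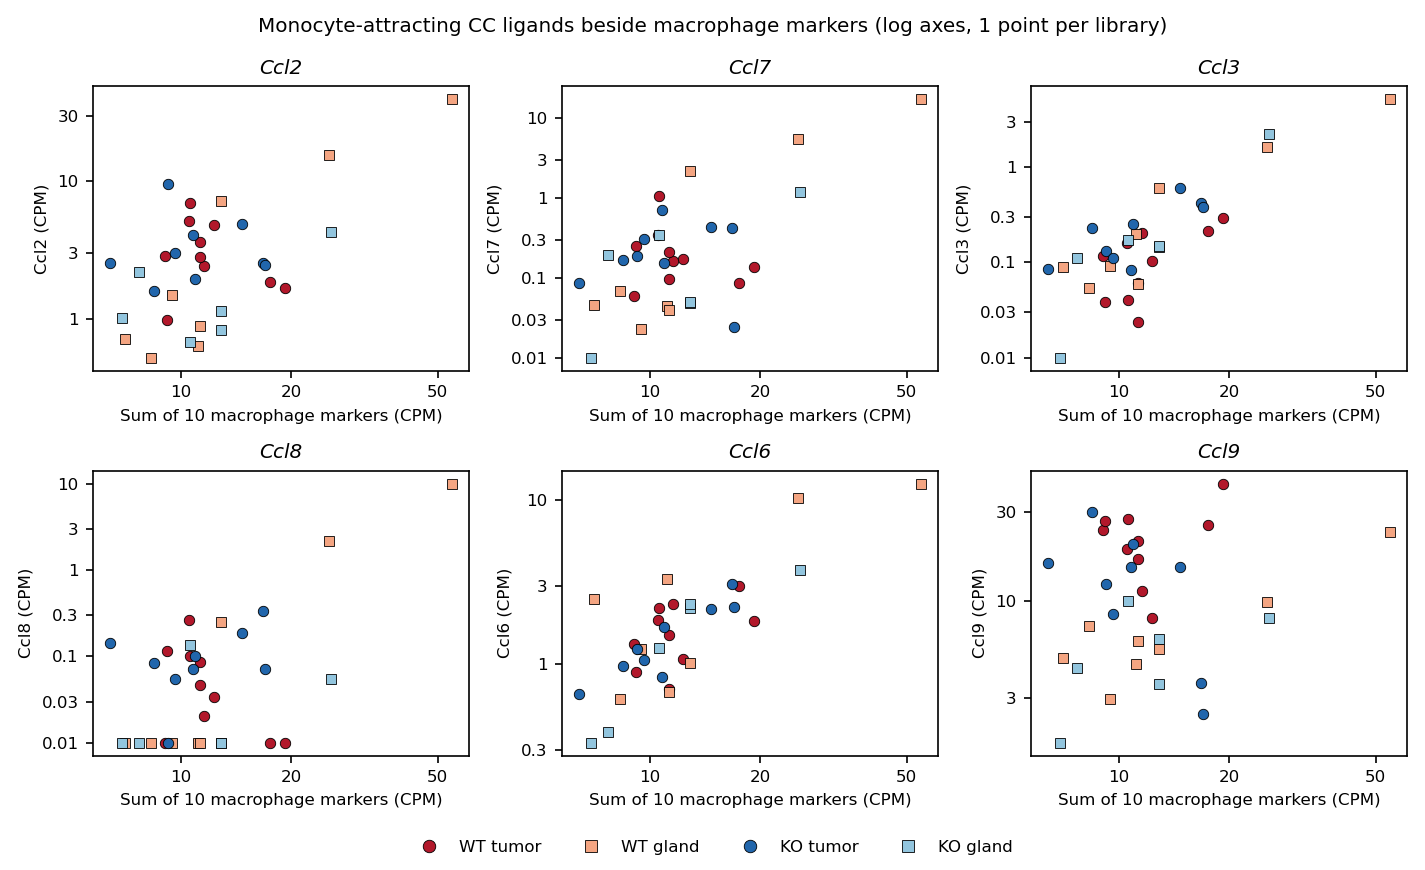
Level of Ccl2, Ccl7, Ccl3, Ccl8, Ccl6 and Ccl9 (vertical axes, CPM, log) against the sum of 10 macrophage markers (horizontal axis, CPM, log) in the 33 libraries, with circles for tumors, squares for glands and values of 0 drawn at 0.01. The second WT gland of week 8, at 54.7 CPM of markers, has the highest Ccl2 (39.6 CPM), Ccl7 (17.1 CPM), Ccl3, Ccl8 and Ccl6 values.

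The same comparisons were made for markers of other cells. Of 10 macrophage markers, 5 were lower in WT tumors (Adgre1, Fcgr1, Ptprc, Itgam and Lyz2) and 0 higher, against 9.53% and 6.21% of all genes, and in KO tumors 1 was higher (C1qb) and 0 lower, against 5.16% and 5.44%. Their sum was 9.07 to 19.2 CPM in WT tumors (median 11.3), 7.04 to 54.7 in WT glands (median 11.2), 6.43 to 17 in KO tumors (median 10.8) and 6.91 to 25.7 in KO glands (median 11.7). Without the 3 macrophage-high glands 0 were lower and 2 higher in WT tumors (Csf1r and C1qb), against 6.1% and 5.08% of all genes in that fit, which also stand for the lists that follow. Those glands were left out for their sum of these same macrophage markers, so that fit is no test of the macrophage list. Of 10 fibroblast markers, 7 were lower in WT tumors (Col1a1, Fbln1, Dcn, Pdgfrb, Dpt, Col1a2 and Thy1) and 2 in KO tumors (Fbln1 and Thy1), against 9.53% and 5.44% of all genes, and 0 were higher. Their sum was 15.99 to 151 CPM in WT tumors (median 37.4), 21.6 to 797 in WT glands (median 62.3), 12.9 to 77.0 in KO tumors (median 51.0) and 19.1 to 152 in KO glands (median 47.2), with the highest value in the second WT gland of week 8. Leaving out the 3 macrophage-high glands, 2 fibroblast markers were lower (Fbln1 and Thy1) and 2 higher (Col3a1 and Pdgfra) in WT tumors, and 3 lower and 1 higher in KO tumors (4.43% and 4.5% of all genes). Of 10 endothelial markers, 6 were lower in WT tumors (Vwf, Tek, Pecam1, Eng, Egfl7 and Cdh5) and 2 in KO tumors (Eng and Egfl7), and 0 were higher, and without the 3 macrophage-high glands 1 (Eng) and 2 were lower. The endothelial sum was 3.70 to 22.6 CPM in WT tumors (median 6.89) and 11.4 to 40.9 in WT glands (median 22.1), and 3.57 to 11.7 in KO tumors (median 5.46) and 6.20 to 38.4 in KO glands (median 17.3). Of 10 lymphocyte markers, Cd79a and Trac were lower in tumors of both genotypes and 0 were higher, against the shares of all genes given above, and Trac alone without the 3 macrophage-high glands. The lymphocyte sum had medians of 0.413 CPM in WT tumors, 1.45 in WT glands, 0.4996 in KO tumors and 1.38 in KO glands. Of 10 dendritic cell markers, 3 were lower (Batf3, Itgax and Ccr7) and 1 higher (Zbtb46) in WT tumors, and 0 lower and 1 higher in KO tumors, against the shares of all genes given above. Medians of the dendritic sum were between 6.53 and 8.84 CPM. Without the 3 macrophage-high glands Itgax alone was lower and Zbtb46 alone higher in WT tumors, and Zbtb46 alone was called in KO tumors. The part of these markers in the ligand differences, beyond leaving the macrophage-high glands out, was not tested.

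Ccl9, a CCR1 ligand of myeloid and epithelial cells, was the only inflammatory CC ligand that was higher in tumors of both genotypes. It lies between Ccl5 and Ccl6 on chromosome 11 (83572919 to 83578636, minus strand). Its level was 8.14, 22.6 and 42.8 CPM in WT tumors and 2.97, 5.81 and 23.6 CPM in WT glands, and 2.46, 15.3 and 29.96 CPM in KO tumors and 1.73, 5.3 and 9.98 CPM in KO glands. Above every gland of their genotype were 5 of 10 WT tumors and 6 of 9 KO tumors. Fitted log2 fold changes were 1.18 ± 0.39 in WT mice (adjusted p = 0.0333) and 1.36 ± 0.40 in KO mice (adjusted p = 0.0208), and without the 3 macrophage-high glands it was 1.92 (adjusted p = 0.006) in WT mice. The WT call was lost without the first gland of week 6 (1.04) or of week 8 (0.93). The WT gland with the most macrophage marker signal had the highest Ccl9 of the glands, 23.6 CPM.

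The neutrophil attractants Cxcl1, Cxcl2, Cxcl3 and Cxcl5 lie within chromosome 5 from 90759360 to 90905938, in the order Cxcl5, Cxcl3, Cxcl1 and Cxcl2, with Cxcl15 between Cxcl3 and Cxcl1. Of these neighbours, Cxcl15 was lower in tumors of both genotypes and Cxcl3 in WT tumors only, though the difference between the genotypes was not called, and the others were not called. Cxcl1 was at 11.2, 29.2 and 75.4 CPM in WT tumors and 10.4, 20.9 and 52.3 CPM in WT glands, and at 41.0, 62.0 and 108 CPM in KO tumors and 22.8, 40.6 and 145 CPM in KO glands. All 9 KO tumors were above the median KO gland, yet the second KO gland of week 12 was above them all. The log2 fold changes were 0.51 ± 0.33 (adjusted p = 0.326) and 0.35 ± 0.33 (adjusted p = 0.651), and without the second WT gland of week 10 the WT change passed the threshold (0.94).

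Cxcl5 was at 4.15, 13.9 and 52.7 CPM in WT tumors and 3.06, 11.3 and 12.9 CPM in WT glands, and at 15.4, 27.4 and 51.9 CPM in KO tumors and 3.95, 13 and 64.3 CPM in KO glands. In WT mice 6 of 10 tumors were above every gland, and in KO mice all 9 tumors were above the median gland. The changes, 0.91 ± 0.41 (adjusted p = 0.134) and 0.68 ± 0.40 (adjusted p = 0.348), missed the threshold. They passed it without the first WT tumor of week 10 (1.06) or the second WT gland of week 8 (1.37), and in KO mice without the second gland of week 12 (1.24).

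Cxcl3 was at 0.282, 1.53 and 5.5 CPM in WT tumors and 0.955, 2.3 and 9.9 CPM in WT glands, and at 1.07, 2.23 and 5.1 CPM in KO tumors and 1.0, 2.05 and 9.36 CPM in KO glands. The groups overlapped, and 2 WT glands were above every tumor, the second of weeks 6 and 8. Its change was −1.43 ± 0.47 (adjusted p = 0.0328) in WT mice, −0.57 (adjusted p = 0.578) without the 3 macrophage-high glands and −0.50 ± 0.47 (adjusted p = 0.655) in KO mice. The WT call was also lost without the second gland of week 6 (−1.01), of week 8 (−0.995) or of week 10 (−1.04). Cxcl2 was at 1.04 to 12.6 CPM over all libraries and was not called (−0.32 ± 0.46 and 0.31 ± 0.47).

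**Figure D5:**
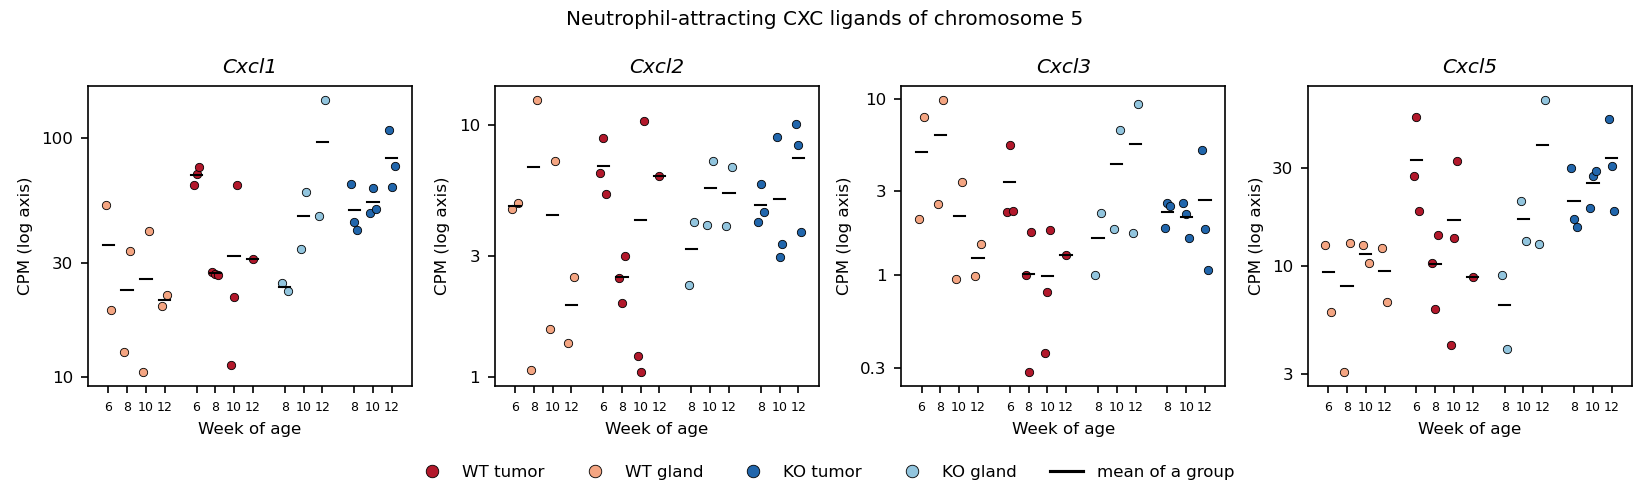
Level of Cxcl1, Cxcl2, Cxcl3 and Cxcl5 (vertical axes, CPM, log) in each library by week (horizontal axis), with tumors and glands of each genotype apart and a black line at the group mean. The groups overlap in all 4 genes, and the second KO gland of week 12 is highest for Cxcl1 (145 CPM) and Cxcl5 (64.3 CPM).

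The promoters of 3 genes of the cluster are shown because they hold the same letters. Each is the 130 bases before the RefSeq start (GRCm38.p6, plus strand), Cxcl1 at chr5:90891115-90891244, Cxcl2 at chr5:90903769-90903898 and Cxcl3 at chr5:90785971-90786100. Capitals mark a run of 11 bases that matches the NF-kB consensus on both strands, and TATAAA in Cxcl3.
Cxcl1: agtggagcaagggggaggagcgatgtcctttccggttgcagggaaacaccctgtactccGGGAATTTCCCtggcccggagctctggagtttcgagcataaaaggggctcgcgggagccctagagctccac
Cxcl2: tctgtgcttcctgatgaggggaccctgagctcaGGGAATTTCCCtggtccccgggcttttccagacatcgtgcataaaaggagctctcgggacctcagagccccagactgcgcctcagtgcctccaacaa
Cxcl3: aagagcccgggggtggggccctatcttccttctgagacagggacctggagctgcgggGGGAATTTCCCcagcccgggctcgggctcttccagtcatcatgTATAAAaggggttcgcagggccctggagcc
The run starts 71, 97 and 73 bases before the start of Cxcl1, Cxcl2 and Cxcl3. Of these genes only Cxcl3 was called between tissues, in WT mice, and that call was lost without the 3 macrophage-high glands. A part of the run in the levels was not tested.

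Of the 26 NF-kB and inflammatory genes listed, 2 were higher in WT tumors (Sod2 and Tnfaip3) and 6 lower (Csf1, Il6, Il1rn, Il1b, Vcam1 and Icam1), against 6.21% and 9.53% of all genes, with a median of −0.08. In KO tumors the same 2 were higher and 3 were lower (Tnfaip2, Vcam1 and Icam1), against 5.16% and 5.44%, with a median of 0.02. When the 3 macrophage-high glands were left out, 2 were higher and 5 lower in WT tumors, against 5.08% and 6.1% of all genes in that fit, with Il1b no longer called, and 3 higher and 3 lower in KO tumors, against 4.5% and 4.43%. Of the 3 most abundant, Tnfaip3, an inhibitor of NF-kB, rose by 1.11 (adjusted p = 0.00025) and 0.90 (adjusted p = 0.00279) on the log2 scale. Ptgs2, the inducible cyclooxygenase, (−0.10 and −0.24) and Nfkbia, the inhibitor IkB alpha, (0.11 and 0.33) were not called.

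Of the CC ligands of lymphoid tissue, dendritic cells and epithelia, 7 entries were measured (Ccl17, Ccl20, Ccl22, Ccl25, Ccl28 and both of Ccl27a). Ccl20 was called higher and Ccl22 lower in WT tumors, and Ccl20 and Ccl28 higher in KO tumors, against the shares of all genes given above. Ccl28, a mucosal chemokine that binds CCR10 and CCR3 and is known in the lactating gland, was at 0.163, 0.322 and 0.584 CPM in WT tumors and 0.162, 0.348 and 0.547 CPM in WT glands. In KO tumors it was 0.0723, 0.391 and 0.739 CPM, and in KO glands 0, 0.107 and 0.375 CPM. The WT groups overlapped, and in KO mice 5 of 9 tumors were above every gland. The fitted change on the log2 scale was −0.03 ± 0.38 in WT mice and 1.99 ± 0.54 (adjusted p = 0.0119) in KO mice, and it was called at week 12, when KO glands held 3 reads or fewer each and the tumors were at least 4.21-fold higher. The call of week 12 was lost without the second gland.

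Ccl22, which attracts regulatory T cells through CCR4, was at 0, 0.078 and 0.366 CPM in WT tumors and 0, 0.206 and 1.62 CPM in WT glands, and at 0, 0.547 and 2.48 CPM in KO tumors and 0, 0.0935 and 17.2 CPM in KO glands. The value of 17.2 CPM was that of the second KO gland of week 10, which also had the highest sum of 10 dendritic cell markers (20.4 CPM). On the log2 scale tumors differed from glands by −2.65 ± 0.90 in WT mice (adjusted p = 0.0397) and 0.94 ± 1.15 in KO mice (adjusted p = 0.797). The WT call was lost without the 3 macrophage-high glands (0.66), and without the second gland of week 6 (−0.17), of week 8 (−1.82) or of week 10 (−2.14) alone. Ccl17, the other CCR4 ligand, was at 0 to 0.461 CPM and was not called (−1.18 ± 0.51 and 0.21 ± 0.56).

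Several abundant ligands did not pass the test between tissues. Cxcl16 was at 71.4, 164 and 242 CPM in WT tumors and 116, 163 and 252 CPM in WT glands, and at 115, 185 and 265 CPM in KO tumors and 98.7, 187 and 328 CPM in KO glands. Its log2 fold changes were 0.01 ± 0.18 and −0.09 ± 0.18. Cx3cl1, the membrane-bound fractalkine that binds CX3CR1, had medians between 38.3 and 45.1 CPM in the 4 sets, and its changes were 0.12 ± 0.17 and 0.16 ± 0.17. Its ranges overlapped, from 34.4 to 63 CPM in WT tumors and 25.4 to 55.6 in WT glands, and from 30.8 to 55.9 in KO tumors and 18 to 52.8 in KO glands. Ccl25, a thymic and gut chemokine of CCR9, was at 4.83, 6.25 and 10.285 CPM in WT tumors and 4.78, 5.72 and 8.55 CPM in WT glands, and at 5.14, 6.87 and 12 CPM in KO tumors and 5.26, 6.41 and 8.71 CPM in KO glands. It changed by 0.13 ± 0.15 (adjusted p = 0.649) and 0.29 ± 0.15 (adjusted p = 0.28). The skin chemokine Ccl27a was at 1.92 to 4.07 CPM and the mucosal Cxcl17 at 0.192 to 3.8 CPM, and neither was called (−0.02 ± 0.15 and −0.10 ± 0.15 for Ccl27a, 0.83 ± 0.42 and 0.22 ± 0.42 for Cxcl17).

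Calls within single ages were fewer. In WT mice 5 members were called at week 6 (Ccl20 higher and Cxcl12, Cxcl13, Cxcl14 and Cxcl15 lower), against 5.86% of all genes, and 6 at week 10 (Ccl20 higher and Cxcl9, Cxcl10, Cxcl13, Cxcl14 and Cxcl15 lower), against 6.13%. At week 8 there were 12 of them, against 9.19%, with Ccl20 higher and Ccl3, Ccl4, Ccl7, Ccl8, Ccl11, Ccl12, Cxcl3, Cxcl12, Cxcl13, Cxcl14 and Cxcl15 lower. The count of week 8 was 3 without the second gland and 6 without the first tumor, and that of week 6 was 2 without the second gland. The shares of all genes called in these left-out fits are not given. In KO mice 2 members were called at week 8 (Ccl20 and Cxcl12), against 2.49%, 4 at week 10 (Ccl20, Cxcl10, Cxcl12 and Cxcl15), against 5.66%, and 5 at week 12 (Ccl20 and Ccl28 higher and Cxcl12, Cxcl14 and Cxcl15 lower), against 6.11%. Cxcl12 at KO week 8 was lost without tumor 2 or tumor 3 or either gland, which left 1, and at KO week 12 the count was 3 without the first gland (Cxcl12, Cxcl14 and Cxcl15 were lost and Cx3cl1 was gained). Without the 3 macrophage-high glands the counts were 2, 4 and 7 at WT weeks 6, 8 and 10, against 1.52%, 6.07% and 6.27% of all genes, and 3, 3 and 5 at KO weeks 8, 10 and 12, against 2.73%, 1.92% and 6.17%. The members lost were Cxcl13, Cxcl14 and Cxcl15 at WT week 6, Ccl3, Ccl4, Ccl7, Ccl8, Ccl11, Ccl12, Cxcl3 and Cxcl15 at WT week 8, and Cxcl10 and Cxcl12 at KO week 10. Those gained were Ccl4 at WT week 10, Cxcl15 at KO week 8 and Cxcl13 at KO week 10.

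The next question was whether loss of PTHrP altered the ligands. No member was called between WT and KO tumors averaged over weeks 8 and 10, against 0.512% of all genes, while 8 members had an unadjusted p under 0.05 by edgeR (10.9% of all genes did), and DESeq2 called 1, Cxcl14. The fit on the compared groups only also called Cxcl14, and with no filter on low counts Cxcl14, Cxcl1 and Ccl9 were called. Cxcl14 had a mean of 20.7 CPM in WT and 36.6 CPM in KO tumors, a log2 fold change of −0.84 ± 0.25 (adjusted p = 0.163). Cxcl1 (29.6 and 51.8 CPM, −0.81 ± 0.35, adjusted p = 0.395) and Ccl25 (5.73 and 8.26 CPM, −0.51 ± 0.17, adjusted p = 0.22) were also lower on average in WT tumors, and Ccl9 higher (21.5 and 12.1 CPM, 0.95 ± 0.41, adjusted p = 0.391). The share of ribosomal reads differs between the genotypes, as given above, and a fit with that share as a covariate also called 0 members. Without the first KO tumor of week 8, 3 members were called, Cxcl14, Ccl25 and Ccl9.

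In glands averaged over weeks 8, 10 and 12, Cxcl13 was the only member called, against 0.906% of all genes, with a mean of 1.56 CPM in WT and 0.157 CPM in KO glands, a log2 fold change of 3.13 ± 0.67 (adjusted p = 0.0302). The call was lost with the ribosomal share as a covariate (2.48, adjusted p = 0.425). It was lost without the 3 macrophage-high glands (2.69, adjusted p = 0.171), without the first WT gland of week 12 (2.64) and without the second KO gland of week 8 (2.91). Ccl28 was 1.75 ± 0.58 higher in WT glands (adjusted p = 0.176) and Cxcl1 1.04 ± 0.36 lower (adjusted p = 0.203), and DESeq2 called 4 members, namely Ccl8, Ccl28 and Cxcl1 besides Cxcl13. The share of all genes that DESeq2 called is not given here. Without the first KO gland of week 12, Cxcl1 was called with Cxcl13, 2 in all.

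The change from gland to tumor was compared between genotypes over weeks 8 and 10, the ages at which both have mice of each tissue with replicates. No member was called, against 0.00548% of all genes, and 7 had an unadjusted p under 0.05 (5.58% of all genes did). They were Ccl20, with a larger rise in WT mice, and Ccl2, Ccl3, Ccl4, Ccl7, Ccl8 and Ccl11, whose estimates ran from −2.41 ± 1.16 (Ccl2) to −6.75 ± 2.52 (Ccl8), all with adjusted p of 0.823 or more. DESeq2 called Ccl8. In WT glands the last 6 had their highest levels in the second gland of week 8.

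With age, from hyperplasia to carcinoma, no member was called between WT tumors of week 10 and week 6, against 0.011% of all genes, nor between KO tumors of week 12 and week 8, against 0% of all genes. Unadjusted p was under 0.05 for 5 members in WT tumors and for 2 in KO tumors, against 8.55% and 7.88% of all genes, so the KO share was no higher than that of all genes. In WT tumors Cxcl3 (0.993 CPM at week 10 and 3.37 CPM at week 6), Cxcl1 (32.1 and 69.8), Cxcl16 (136 and 210) and Ccl20 (4.57 and 8.4) had lower means at week 10, and Cxcl17 a higher one (2.14 and 0.794), with adjusted p between 0.554 and 0.571. In KO tumors Cxcl14 had means of 20.5 CPM at week 12 and 42.5 CPM at week 8, and Ccl9 of 16.9 and 7.11 CPM. Without the third WT tumor of week 10, Cxcl1 was called, and without the first KO tumor of week 8, Ccl9 was. The lone WT tumor of week 12 entered no test, and it had the lowest Ccl20 of all tumors (1.91 CPM), the lowest Cxcl12 (3.88 CPM) and the highest Ccl9 (42.8 CPM).

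Among the receptors, 21 of 22 listed were measured. In WT tumors 2 were higher (Ccrl2 and Ackr2) and 3 lower (Ccr1, Ccr7 and Cxcr4), against 6.21% and 9.53% of all genes, with a median of 0.44, and in KO tumors 2 were higher (Ccrl2 and Ackr3) and 1 lower (Cxcr4), against 5.16% and 5.44%, with a median of 0.30. In the fit without the 3 macrophage-high glands, 3 were higher (Ccrl2, Ackr2 and Ackr3) and 1 lower (Cxcr4) in WT tumors, against 5.08% and 6.1% of all genes in that fit, and Ccrl2 alone was called in KO tumors, against 4.5% of all genes called higher. The 3 most abundant include both receptors of Cxcl12. Ackr3, which takes up Cxcl12 without classical signaling, was at 5.25, 16.2 and 35.5 CPM in WT tumors and 6.77, 9.18 and 15.1 CPM in WT glands, a log2 fold change of 0.69 ± 0.29 (adjusted p = 0.109), and it rose by 0.81 ± 0.29 (adjusted p = 0.0708) in KO tumors. Cxcr4, the signaling receptor, was at 0.239, 0.912 and 1.41 CPM in WT tumors and 1.6, 2.45 and 4.57 CPM in WT glands, and fell as well, by 1.79 ± 0.30 (adjusted p = 6.13e-05) in WT and by 0.90 ± 0.30 (adjusted p = 0.0428) in KO tumors. Ccrl2, an atypical receptor that presents chemerin, was at 2.76, 6.53 and 11.8 CPM in WT tumors against 0.576, 1.35 and 2.39 CPM in WT glands, so that no WT tumor overlapped a gland, and it rose by 2.58 ± 0.31 (adjusted p = 8.43e-07) and by 2.08 ± 0.31 (adjusted p = 2.39e-05). Cxcr2, the receptor of the neutrophil attractants, was not called, and the sum of 9 measured neutrophil markers, nearly all of it S100a8, a gene that tumor epithelium can also express, was 10.30 to 126 CPM in WT tumors and 1.10 to 7.23 CPM in WT glands. In KO mice the sum was 10.7 to 82.7 CPM in tumors and 2.56 to 5.39 CPM in glands. Of these 9, S100a8 was called higher in both genotypes, Csf3r lower in WT tumors and Camp higher in KO tumors, against the shares of all genes above.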

How the data were processed

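RNAseq of sorted GFP+ mammary cells was analysed in 33 libraries, 1 per mouse, and conditions were taken from the sample labels. The authors depleted rRNA, made stranded libraries, aligned the reads with HISAT to GRCm38 and Gencode, took out duplicates with Picard 1.128 and obtained gene counts from HTSeq (the submitters' processing notes also name SAMtools, R 3.6.2 and DESeq2). The strand option used in counting is not given in the sources used here. The deposited table holds these raw counts, unnormalized, for 55487 genes. A further 111 entries for spike-in, reporter and transgene sequences, with 0.0778% of the reads, entered neither library sizes nor tests. The normalized table of the authors was not used here.

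Counts of the 36527 genes whose reads summed to 10 or more were fitted in edgeR 4.0.16 (estimateDisp, glmQLFit, glmQLFTest, TMM) with 1 coefficient per genotype, tissue and week. There were 13 comparisons. A member was called where it changed over 1.5-fold in either direction with an adjusted p under 0.1 (Benjamini-Hochberg, over all genes tested). Thresholds follow the paper. The paper names DESeq2 (1.42.0), which was run as an alternative. The standard error of a change is its size over the root of its F statistic. WT averages use weeks 6, 8 and 10 and KO averages weeks 8, 10 and 12, while the lowest, median and highest levels cover all libraries of a set. CPM were computed with TMM library sizes. The scripts were tested on simulated data.

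The smallest library held 28419983 counted reads and the largest 130981596. A group was taken as at the floor where no library held over 3 reads, and folds against them are lower bounds set against 3 reads per library. Floors cover counting error only, while standard errors also hold the spread between mice.

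Positions and exon overlaps are from GENCODE (GRCm38), and promoter sequences from RefSeq (GRCm38.p6). Members and lists were chosen with earlier results of these data known. Named with full values were members called in a comparison averaged over weeks and the 8 members with the highest mean CPM. Other lists are given by counts, with at most the 3 most abundant genes of each described by their values, beyond the genes called, and the regulator and receptor lists are counted without genes that are not reported here. Alternatives were DESeq2, its size factors in edgeR, no filter on low counts, only the compared groups, each library left out in turn (with the dispersion trend of the full fit and quasi-likelihood dispersions estimated again), the replicate number as a block, the rRNA share as a covariate and, added after seeing the data, leaving out 3 glands with high macrophage markers and, for the interferon regulators, the first WT gland of week 10.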

Additional observations from a re-analysis of the deposited data

How the results depend on the processing

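Of the counts of members called, 59 stayed within 1.5 times of the reported count and 22 did not when a setting other than a left-out library changed, and 114 did and 15 did not when 1 library was left out. The cause of the exceptions was not tested. Except for the fits without the 3 macrophage-high glands, the share of all genes called is not given for these fits. The counts therefore do not show whether members moved more than other genes did. With no filter on low counts there were 11 members called at WT week 6, 5 at KO week 8, 7 at KO week 10, 2 in the difference of the tumor effect, 3 between tumors of the genotypes, 2 between their glands and 1 between KO tumors of weeks 12 and 8. DESeq2 gave 9 at WT week 6, 4 at KO week 8, 1 in the difference, 1 between tumors and 4 between glands. Fitted on the compared groups only, there were 16 at WT week 6, 10 at WT week 10, 8 at KO week 8, 13 at KO week 10 and 1 between tumors. Without the 3 glands of high macrophage markers there were 2 at WT week 6, 4 at WT week 8, 9 in the WT average and 0 between glands, and with the rRNA share as a covariate 0 between glands.

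With 1 library left out, the counts ran from 2 to 6 at WT week 6, 3 to 14 at WT week 8, 4 to 6 at WT week 10, 1 to 2 at KO week 8, 3 to 5 at KO week 10, 3 to 6 at KO week 12, 8 to 18 in the WT average, 7 to 9 in the KO average, 0 to 3 between tumors, 0 to 2 between glands, 0 to 1 for each pair of tumor ages and 0 to 0 for the difference. The lowest counts came without the second WT gland of week 6 at WT week 6 and in the WT average, without the second WT gland of week 8 at WT week 8 and without the first WT gland of week 10 at WT week 10.

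Of the log2 fold changes, 718 kept direction and side of the threshold, 46 lost the call, 6 gained it and 20 turned. Those that turned were Ccl8 in WT mice (3.22 without the 3 glands, 0.35 without the second WT gland of week 8, −4.12 to 0.35 over fits without 1 library), Ccl11 (1.11), Ccl22 (0.66) and Ccl7 (0.77) without the 3 glands, and 2 genes near 0. Cxcl16 in WT mice became −0.0048 with DESeq2 or its size factors, −0.03 with the block, −0.18 without the 3 glands and −0.0014 to −0.0926 in 8 fits without 1 library (−0.0926 to 0.14 over all such fits). In KO mice Cxcl16 became 0.11 without the second gland of week 10 (−0.23 to 0.11 without 1 library), and Cx3cl1 −0.0034 without the second gland of week 12 (−0.0034 to 0.50).

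Replicate numbers did not pair the libraries, with a median correlation of their deviations of 0.0229 over 171 pairs of the same number and −0.00908 over 300 other pairs. With the replicate block, 12 members were called in the WT average (without Ccl6, Ccl8, Ccl11 and Ccl22), 10 at WT week 8 (without Ccl4 and Ccl12) and 8 in the KO average (without Cxcl9), and the other counts did not change. Groups of 2 or 3 mice limit all of these counts, and members near 3 reads per library could not show a difference.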

Other observations

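Cxcl11, the third ligand of CXCR3, was not among the members because the count table lists it as a polymorphic pseudogene, and it had 872 reads over the 33 libraries. Its level was 0.0197, 0.0929 and 0.734 CPM in WT tumors (lowest, median and highest), 0.114, 1.4 and 5.7 CPM in WT glands, 0, 0.0412 and 0.178 CPM in KO tumors and 0, 0.117 and 0.273 CPM in KO glands. The highest WT values lay in glands and the KO groups overlapped. In the averages over weeks Cxcl11 was called lower in WT tumors, also without the 3 macrophage-high glands, and was not called in KO tumors. The pseudogenes Ccl19-ps1 and Ccl19-ps3 had 0 reads.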
